A study of Mus musculus with 16 samples.

Results

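The early transcriptional response of D10 cells to CD3/CD28 stimulation was described from 4 of the 16 arrays of the series, namely 2 arrays of control cells at 0 h and 2 arrays of control cells at 2 h. D10 is a murine Th2 cell line, used here as a fast-growing variant of a T helper cell clone and kept in medium with IL-2, so the data come from 1 clonal line and not from primary T cells. Stimulation was with biotinylated antibodies to CD3 and CD28 and streptavidin, and neither group received the Akt inhibitor Akti1/2. The methods give the control cells as untreated while the results mention a solvent, so the vehicle of both groups is uncertain. The other 12 arrays held control cells at 6 and 12 h and cells pre-incubated for 1 h with 10 µM Akti1/2 at 0, 2, 6 and 12 h. They entered the fit to estimate the spread. Of the 18138 genes of the table, 7395 were above the negative controls on at least 2 of the 16 arrays and were tested, and 6643 met that rule on the 4 arrays alone. Whether the duplicates came from separate cultures is not stated, so that the p-values measure the spread between arrays, which may be technical.

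The antigen receptor of a T cell signals through the CD3 chains and the kinases Lck and Zap70, and CD28 adds a costimulatory signal. Together they release calcium, which activates NFAT through calcineurin, and they activate the MAP kinases that feed AP-1 and the adaptor complex that frees NF-κB from its IκB inhibitors. The first genes to be switched on encode transcription factors, their own inhibitors and secreted cytokines, many of which have short-lived mRNAs. In Th2 cells the cytokine program includes Il4, Il5 and Il13 under the control of the lineage factor Gata3.

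Values are log2 intensities after background correction on the negative controls and quantile normalization, and differences are fitted log2 fold changes at 2 h against 0 h with their standard error (SE). A small constant was added before the logarithm, which understates the change of dim genes. The 4 arrays detected 6288 to 6641 genes (detection p under 0.01 against the negative controls), their duplicates correlated at r = 0.994 at 0 h and r = 0.9903 at 2 h over genes, and the median absolute difference between duplicates was 0.12 and 0.15 on the log2 scale. Replicate 1 of both groups lay on chip 1 and replicate 2 on chip 2. The label was compared with marker genes. The CD3 chains Cd3d, Cd3e, Cd3g and Cd247 with Cd2 and Lck were detected on all 4 arrays, while the T cell genes Thy1 and Trat1 were detected on none. Detected on all 4 were also the Th2 genes Gata3, Il4, Il5, Il13, Il1rl1 and Ccr8. Cd4 was detected on both arrays at 0 h and on 1 at 2 h, and Ccr4 on none. None of the 7 CD8 T or NK cell genes, 6 B cell genes and 6 fibroblast genes of the table was above background in either group, and their summed intensity lay between 0.967 and 1.02 times that of the negative controls. Of the 16 macrophage or dendritic cell genes Cd68 and H2-Eb1 were detected, and of the 7 erythroid or granulocyte genes Hba-a1 and Mpo. None of these 4 genes was called between 0 and 2 h.

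After 2 h of CD3/CD28 stimulation, the largest changes were rises in genes for cytokines, chemokines and NF-κB inhibitors. By limma with Benjamini-Hochberg adjustment 760 of 7395 genes were called (10.3%), of which 327 rose (4.42%) and 433 fell (5.86%), and 1956 had an unadjusted p under 0.05. All 760 moved in the same direction on both chips, which the call itself makes likely with 2 arrays a group. With 2 arrays a group, the arrays of both times did not overlap in 59.7% of all genes tested, so that an absence of overlap is common here. Rises were larger than falls. The median fitted log2 fold change was 0.75 among the genes that rose and -0.62 among those that fell, against -0.02 over all genes tested. A log2 of 1 or more was reached by 94 rises and 51 falls, a log2 of 2 by 32 rises and by the fall of Egr1 alone, and a log2 of 3 by 15 rises. For 47 of the rises the gene was not above background on either array at 0 h, and for 47 of the falls on either array at 2 h, so that these folds are bounds. Scaling to a common mean in place of quantile normalization gave 860 calls with 223 rises and 637 falls, a share of rises of 25.9% against 43.0%, and moved the median of all genes to -0.09. The count fell to 265 (142 of them rises) without replicate 1 at 0 h, to 297 (148 rises and 149 falls) without replicate 2 at 0 h, to 439 (196 and 243) without replicate 1 at 2 h and to 319 (177 and 142) without replicate 2 at 2 h, so that rises outnumbered falls without replicate 1 at 0 h and without replicate 2 at 2 h. When only these 4 arrays were fitted it was 433 (209 and 224).

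**Figure D1:**
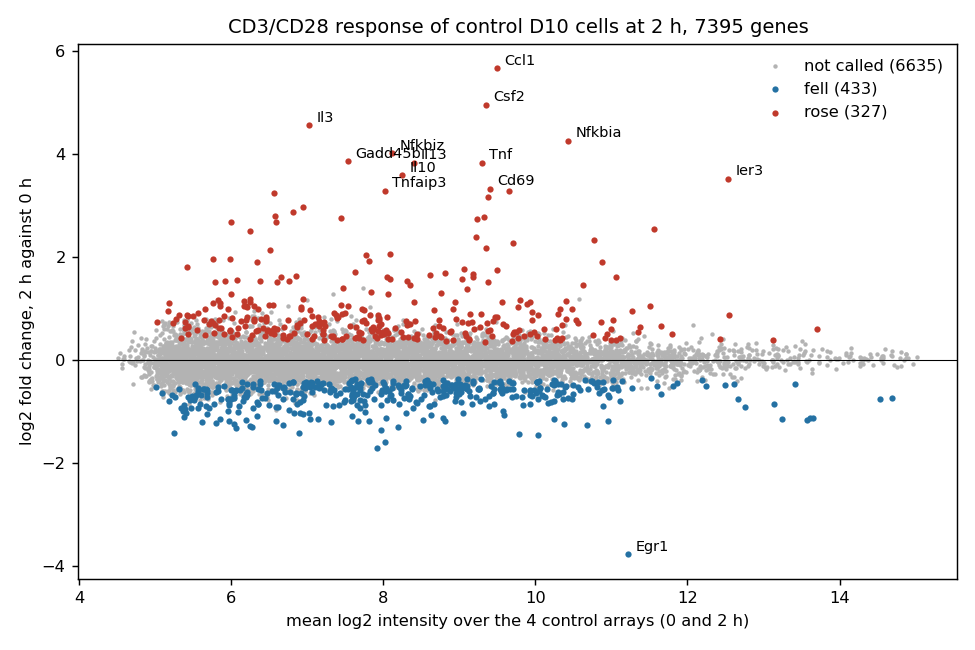
Fitted log2 fold change at 2 h against 0 h (y axis) by mean log2 intensity over the 4 control arrays (x axis), 1 point per gene, for 7395 genes. Red points rose (327), blue points fell (433) and grey points were not called. Several rises exceed a log2 of 3, while Egr1 is the only fall beyond 2.

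Genes for secreted cytokines and growth factors rose in large number. Of 34 such genes on the arrays, 23 were tested and 11 were not above background. Of the 23, 17 rose (73.9%, against 4.42% of all genes) and none fell. Il3, Il6, Lta, Tnfsf9 and Tnfsf10 passed the filter only through arrays of stimulated cells, which favours rises in this share. Among genes of the list detected on all 16 arrays 10 rose and none fell, against 329 rises and 419 falls among all 5544 such genes. The median log2 fold change of the 23 was 1.52, or 1.45 with genes below background in a group set at their bound. Csf2, which encodes GM-CSF, was measured at 6.77 and 6.97 at 0 h and at 11.91 and 11.74 at 2 h, a log2 fold change of 4.96 (SE 0.20, adjusted p = 1.6e-08, limma). Il3, a haematopoietic growth factor, was at 4.80 and 4.69 at 0 h, not well above background, and at 9.05 and 9.56 at 2 h, at least 12.7-fold higher (adjusted p = 9.12e-08). Both 2 h arrays lay far above both 0 h arrays for these neighbouring genes of the cytokine cluster.

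Among the Th2 cytokines, Il13 had the largest fitted rise. It was at 6.20 and 6.78 at 0 h and at 10.35 and 10.27 at 2 h (log2 fold change 3.82, SE 0.43, adjusted p = 0.000137). Il5, the eosinophil growth factor, was at 8.61 and 8.64 and then at 10.43 and 10.28 (1.74, SE 0.26), and Il4, which drives Th2 differentiation, at 9.94 and 9.86 and then at 11.45 and 11.24 (1.45, SE 0.14). Of these Th2 cytokine genes Il4 thus had the smallest fitted change. In all 3 the arrays of both times were apart, as in 59.7% of all genes tested. Il10, an anti-inflammatory cytokine, went from 6.65 and 6.26 to 10.18 and 9.90 (3.59, SE 0.21, adjusted p = 3.5e-07). Gata3, the Th2 lineage factor, was at 12.22 and 12.24 before and at 12.69 and 12.58 after 2 h. Its log2 fold change of 0.41 (adjusted p = 0.0483) was lost without any 1 of the 4 arrays (adjusted p 0.122 to 0.202), with the chip as a block (0.0515) and in a fit of only these 4 arrays (0.0849). Il2 is not analysed here.

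TNF superfamily ligands rose together with Tnf itself, an inflammatory cytokine and NF-κB target. Tnf was at 7.38 and 7.39 at 0 h and at 11.30 and 11.10 at 2 h (log2 fold change 3.82, SE 0.24, adjusted p = 6.34e-07). Tnfsf14, which encodes LIGHT, went from 5.65 and 5.26 to 8.60 and 8.24 (2.96), detected on 1 of the 2 arrays at 0 h. The lymphotoxin genes Ltb (2.28, adjusted p = 1.01e-06) and Lta rose too, Lta being below background at 0 h and at least 1.88-fold higher at 2 h. Tnfsf9, the ligand of the costimulatory receptor 4-1BB, was below background at 0 h as well and at least 5.04-fold higher at 2 h. Tnfsf11, which encodes RANKL, rose by 1.04. Outside this family the EGF receptor ligand Areg (2.34, SE 0.21) and the IL-6 family cytokine Lif (1.19) rose. Il6 was below background at 0 h and at least 3.85-fold higher at 2 h, but its call was lost without replicate 1 at 0 h or replicate 2 at 2 h (adjusted p 0.0665 to 0.0755). Tnfsf10, below background at 0 h and detected on 1 array at 2 h, was at least 1.01-fold higher, and Spp1 rose by 0.64. Both calls were lost without any of 3 arrays, all but replicate 1 at 2 h (adjusted p 0.0664 to 0.29). Il24, Csf1, Osm, Tgfb1, Mif and Prf1 were tested and not called, with log2 fold changes from -0.05 to 0.24.

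The single largest change on the arrays was that of a chemokine gene. Ccl1, which encodes a ligand of the Th2 cell receptor CCR8, was at 6.52 and 6.82 at 0 h and at 12.31 and 12.35 at 2 h, a log2 fold change of 5.66 (SE 0.18, adjusted p = 2.78e-09) or 50.5-fold. The inflammatory chemokine genes Ccl3, at 7.76 and 7.83 and then at 11.04 and 10.87 (3.16, SE 0.12), and Ccl4, at 10.10 and 10.49 and then at 12.89 and 12.76 (2.54, SE 0.14), rose as well. Cxcl2, a neutrophil attractant, and Cxcl10, a CXCR3 ligand, were below background at 0 h and at least 3.22-fold and 3.65-fold higher at 2 h. Of 19 chemokine genes on the arrays, 8 were tested, with a median log2 fold change of 2.52, or 1.78 with bounds. Of the 8, 6 rose (75.0%, against 4.42% of all genes) and none fell. Cxcl2 and Cxcl10 passed the filter through arrays of stimulated cells, which favours rises in this share. Among genes of the list detected on all 16 arrays 4 rose and none fell, against 329 rises and 419 falls among all 5544 such genes. The rise of Ccl5 by 0.70 was the weakest, and its call was lost with the replicate block (adjusted p = 0.0504) and without replicate 1 or 2 at 0 h or replicate 2 at 2 h (0.111 to 0.261). Ccl17 (-0.19) and Xcl1 (0.41) were not called.

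**Figure D2:**
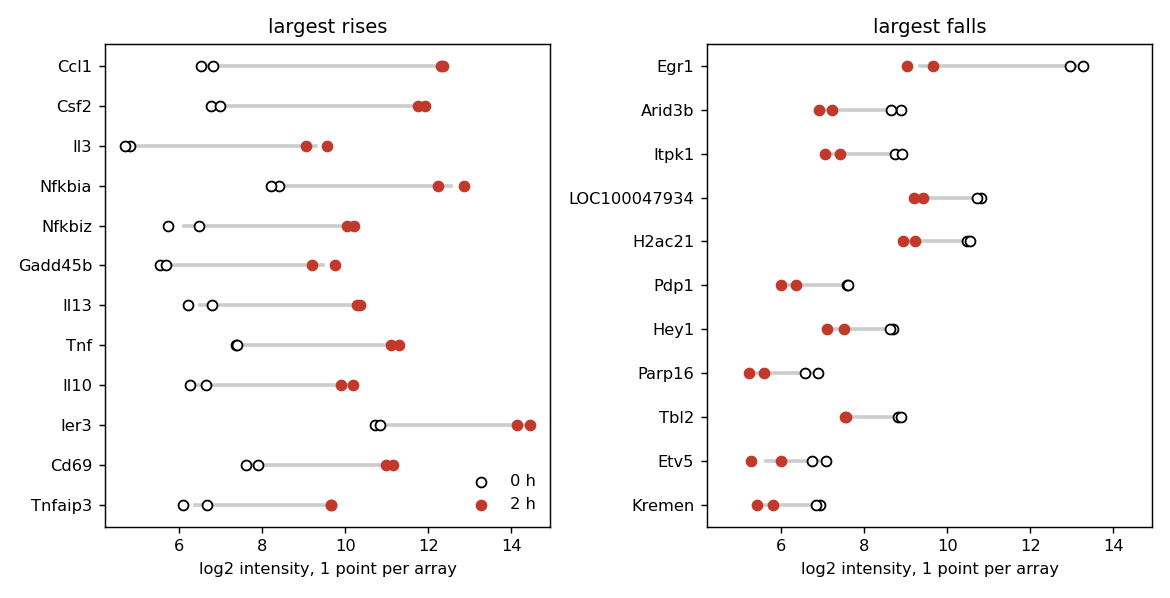
Log2 intensity (x axis) of 12 genes with the largest rises and 11 of those with the largest falls, 1 point per array, at 0 h (open circles) and 2 h (filled red circles), with grey lines between the group means. The genes were picked for large called changes, so that the points of both time points are apart in all 23. Ccl1 lies at 6.52 and 6.82 against 12.31 and 12.35. Of all genes tested, 59.7% have no overlap.

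Many but not all NF-κB inhibitor and feedback genes rose. Of 25 such genes on the arrays, 24 were tested, with a median log2 fold change of 0.77. Of the 24, 12 rose (50.0%, against 4.42% of all genes), 12 were not called and none fell. Bcl3 and Rel passed the filter through arrays of stimulated cells, which favours rises in this share. With only genes detected on all 16 arrays, 10 of the list rose and none fell, against 329 rises and 419 falls among all 5544 such genes. Nfkbia encodes IκBα, the main cytoplasmic inhibitor and itself a target of NF-κB. It was at 8.40 and 8.20 at 0 h and at 12.87 and 12.24 at 2 h (4.26, SE 0.17, adjusted p = 1.43e-08). Genes of nuclear IκB proteins rose as well, with Nfkbiz from 6.48 and 5.73 to 10.21 and 10.03 (4.01, SE 0.21) and Nfkbid from 8.02 and 8.00 to 11.48 and 11.10 (3.28, SE 0.16). Bcl3, another nuclear IκB, was below background at 0 h and at least 3.14-fold higher at 2 h. Tnfaip3, which encodes the ubiquitin-editing inhibitor A20, went from 6.09 and 6.66 to 9.66 on both arrays (3.28, SE 0.21, adjusted p = 7.35e-07). Nfkbie rose by 1.62, the TNF receptor adaptor gene Traf1 by 2.73 and the adhesion molecule gene Icam1 by 2.77.

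Among the subunit genes, values were mixed. Rel, which encodes c-Rel, was below background at 0 h and at 6.71 and 6.76 at 2 h, at least 2.14-fold higher, and Relb rose by 1.53 (SE 0.16). Nfkb1 went from 9.86 and 9.77 to 10.64 and 10.19 (0.61, adjusted p = 0.0303), a call that was lost without either 0 h array or replicate 1 at 2 h (0.108 to 0.186). Nfkb2 (0.93, adjusted p = 0.0524) and Rela (0.20) were not called. The kinase gene Map3k8 rose by 0.97, whereas Ikbkb, Ikbkg, Chuk and Map3k14, which encode the IκB kinase complex and its upstream kinase, were not called (-0.20 to 0.14). The count of 12 lay between 10 and 13 under all alternatives run.

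Promoters of 6 genes of these groups that rose and of Arid3b, which fell, are shown because the genes moved together and NF-κB is a textbook regulator of many of them. The first 5 were picked because they hold a pattern of the NF-κB motif, and Csf2 because it holds none. They are the 250 bases before the RefSeq start site in GRCm38.p6, written in the direction of transcription. Nfkbia lies at chr12:55492648-55492897, Tnfaip3 at chr10:19015411-19015660, Ccl1 at chr11:82179813-82180062, Tnf at chr17:35202008-35202257, Cxcl2 at chr5:90903649-90903898 on the plus strand, Csf2 at chr11:54249900-54250149 and Arid3b at chr9:57836780-57837029, all but Cxcl2 on the minus strand. Capitals mark matches on either strand to GGG and CC set apart by any 5 bases (NF-κB), TGANTCA (AP-1), TGACGTCA (CRE), GCGTGGGCG (EGR), CACGTG (E-box) or TATAAA, and overlapping matches run together.
Nfkbia: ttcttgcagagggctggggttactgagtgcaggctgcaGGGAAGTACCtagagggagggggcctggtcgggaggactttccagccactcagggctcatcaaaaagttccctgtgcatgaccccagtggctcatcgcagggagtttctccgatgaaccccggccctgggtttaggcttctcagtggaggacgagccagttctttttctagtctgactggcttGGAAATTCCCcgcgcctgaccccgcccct
Tnfaip3: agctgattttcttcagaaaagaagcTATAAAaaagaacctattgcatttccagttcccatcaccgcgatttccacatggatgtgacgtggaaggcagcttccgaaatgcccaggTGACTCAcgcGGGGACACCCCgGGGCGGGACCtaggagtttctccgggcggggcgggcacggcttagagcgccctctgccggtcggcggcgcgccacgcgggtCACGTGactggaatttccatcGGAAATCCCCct
Ccl1: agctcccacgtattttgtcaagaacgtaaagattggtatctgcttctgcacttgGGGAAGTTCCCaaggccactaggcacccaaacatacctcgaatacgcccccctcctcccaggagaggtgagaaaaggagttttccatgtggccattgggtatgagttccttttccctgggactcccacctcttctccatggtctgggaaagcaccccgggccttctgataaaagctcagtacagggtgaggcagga
Tnf: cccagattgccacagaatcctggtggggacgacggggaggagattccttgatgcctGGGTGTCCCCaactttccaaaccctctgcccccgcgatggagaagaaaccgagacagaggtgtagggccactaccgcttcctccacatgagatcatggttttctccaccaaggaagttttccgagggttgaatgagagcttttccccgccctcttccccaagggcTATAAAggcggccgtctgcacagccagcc
Cxcl2: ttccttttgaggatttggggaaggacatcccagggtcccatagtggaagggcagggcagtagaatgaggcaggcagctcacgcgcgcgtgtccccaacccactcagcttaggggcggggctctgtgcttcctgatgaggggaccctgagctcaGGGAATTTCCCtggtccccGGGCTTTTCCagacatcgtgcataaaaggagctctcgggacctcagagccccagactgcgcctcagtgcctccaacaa
Csf2: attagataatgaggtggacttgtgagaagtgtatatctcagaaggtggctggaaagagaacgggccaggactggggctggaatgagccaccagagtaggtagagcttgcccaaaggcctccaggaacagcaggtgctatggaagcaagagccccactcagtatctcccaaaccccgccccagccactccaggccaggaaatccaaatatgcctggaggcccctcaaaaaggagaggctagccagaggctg
Arid3b: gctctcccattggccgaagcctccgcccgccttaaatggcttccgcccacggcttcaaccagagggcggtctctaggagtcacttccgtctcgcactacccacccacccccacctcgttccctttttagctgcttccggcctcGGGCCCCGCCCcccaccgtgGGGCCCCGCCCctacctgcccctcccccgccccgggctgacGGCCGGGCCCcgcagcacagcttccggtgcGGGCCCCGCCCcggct
The NF-κB pattern, read on both strands, occurs in 45.4% of the 27025 promoter windows of this length in the table of promoters and in 61.1% of the 5491 windows of genes tested. Of all 27025 windows, 6.87% hold TGANTCA, 1.62% TGACGTCA, 0.54% GCGTGGGCG, 6.05% CACGTG and 13.0% TATAAA. The NF-κB pattern lies at -196 and -195 in Ccl1 and at -212 and -29 in Nfkbia, counted from the start site. Promoters were read for 21 genes with large rises, of which 16 hold the pattern and 5 (Csf2, Il13, Gadd45b, Ccl3 and Traf1) do not. The 21 are picked from the genes named here, so that this count is not a share of all rises. Of the 12 largest rises 9 have a window, and 6 of these hold the pattern. Promoters were also read for 5 genes with large falls, of which 3 hold the pattern and 2 (H2ac21 and Parp16) do not. Arid3b is 1 of the 3, with matches at 7 positions counted on both strands and in part overlapping. Tnfaip3 also holds the AP-1 pattern at -136, an E-box at -33 and TATAAA at -225, and Tnf holds TATAAA at -29. These are matches of letters and not measured binding sites. Among genes with a window, the NF-κB pattern occurs in 61.1% of the 247 that rose and in 62.8% of the 317 that fell. These shares lie near the 61.1% of genes tested. They were not compared by a test, since only 74.3% of the genes tested have a window in the table.

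Immediate early genes split, and the classical member Egr1 fell. Of 33 such genes on the arrays, 15 were tested and 18, among them Nr4a1, Fosb and Egr3, were not above background. Of the 15, 7 rose (46.7%, against 4.42% of all genes) and Egr1 fell. Nab2 passed the filter only through arrays of stimulated cells, which favours rises in this share. Ier3, a stress-inducible survival gene, was at 10.72 and 10.84 at 0 h and at 14.45 and 14.14 at 2 h (3.52, SE 0.18, adjusted p = 1.04e-07). The AP-1 genes Junb (9.97 and 9.88, then 12.03 and 11.62, a log2 fold change of 1.90) and Batf (1.54) rose, as did Zfp36 (1.68), whose product tristetraprolin destabilizes cytokine mRNAs. Fos was at 6.60 and 6.91 before and at 6.57 and 7.12 after 2 h, and its log2 fold change of 0.09 (adjusted p = 0.892) changed sign with other processing. Jun (0.35), Jund (0.70), Atf3 (0.76) and Klf6 (-0.46, adjusted p = 0.116) were not called. Egr2 (0.84) lost its call without either 0 h array or replicate 1 at 2 h (adjusted p 0.0712 to 0.158). Nab1 and Nab2, corepressors of EGR factors, rose by 0.78 and by at least 1.31-fold, the latter called at an adjusted p of 0.0442 that exceeded 0.05 without any 1 array (0.0718 to 0.254) and with the replicate block (0.0571).

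Egr1, a zinc-finger factor usually induced rapidly upon receptor signalling, showed the largest fall. It was at 13.26 and 12.96 at 0 h and at 9.02 and 9.66 at 2 h, a log2 fold change of -3.77 (SE 0.29, adjusted p = 4.38e-06), or 13.6-fold lower. Both 2 h arrays lay far below both 0 h arrays, and the fall was called under all 12 alternatives run. Times between 0 and 2 h were not analysed here.

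Some feedback regulators of signalling and mRNA decay rose strongly, but most tested genes of these lists were not called, and 2 phosphatase genes fell. Of 13 tested MAP kinase phosphatase, Sprouty and GADD45 genes 4 rose (30.8%, against 4.42% of all genes) and 2 fell (15.4%, against 5.86%). The other 7 were not called, and the median log2 fold change of the list was -0.09. Gadd45b passed the filter through arrays of stimulated cells, which favours rises in this share. Gadd45b, a stress-inducible activator of MAP kinase signalling, was at 5.54 and 5.67 at 0 h, not well above background, and at 9.74 and 9.19 at 2 h, at least 14.2-fold higher. Rgs16, which turns off G protein signalling, went from 5.58 and 5.17 to 8.35 and 8.15 (2.88, SE 0.23), and the MAP kinase phosphatase gene Dusp1 from 8.24 and 8.11 to 10.04 and 9.84 (1.77, SE 0.18). Dusp16 rose by 0.91. The ERK phosphatase genes Dusp6 (-0.66) and Dusp4 (-0.61) fell, calls lost without either 0 h array or replicate 1 at 2 h, and for Dusp4 also without replicate 2 at 2 h (adjusted p 0.0563 to 0.289). Zc3h12a, which encodes the ribonuclease Regnase-1 that degrades cytokine mRNAs, went from 5.95 and 6.17 to 9.10 and 8.55 (2.76, SE 0.21, adjusted p = 4.26e-06). With Zfp36 and Btg1 it made up the 3 rises of 12 tested regulators of short-lived mRNA, of which 9 were not called (list median 0.12). Of 17 tested SOCS, CISH, PIM and STAT genes 4 rose (23.5%) and 3 fell (17.6%). The other 10 were not called, and the list median was -0.07. Bcl6 and Socs3 passed the filter through arrays of stimulated cells, which favours rises in this share. Jak2 (1.71, SE 0.13) and the suppressor genes Socs3 (1.53) and Cish (0.66) rose, and Bcl6, a transcriptional repressor, was below background at 0 h and at least 2.51-fold higher at 2 h. Stat4, which transmits IL-12 signals, fell by 0.59 (adjusted p = 0.00583), and the fall of Pim3 (-0.48) was lost without any 1 of the 4 arrays.

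Surface molecules of activation rose while genes of the antigen receptor complex were mostly not called. Cd69, the early activation antigen, was at 7.89 and 7.60 at 0 h and at 11.15 and 10.97 at 2 h (3.32, SE 0.17, adjusted p = 1.04e-07). Cd274, which encodes PD-L1, rose by 1.29 (SE 0.18), and its relative Pdcd1lg2, which encodes PD-L2 and was chosen after its values were seen, by 2.06. In all, 5 of 14 tested costimulatory and activation genes rose (35.7%) and none fell, but without single arrays the count was 2 to 5, and Cd44, Cd96 and Tnfrsf18 (0.58 to 0.68) lost their calls without 2 or 3 of the arrays. It was 2 without replicate 2 at 0 h and 3 without replicate 1 at 0 h or replicate 2 at 2 h. Of 26 tested genes of the receptor complex and proximal kinases, 2 rose (7.69%, against 4.42% of all genes) and 3 fell (11.5%, against 5.86%). Among them were Rasgrp1 (0.76), which rose, and Vav1 (-0.46) and Zap70 (-0.39), which fell. None of these 5 calls was stable, with 0 to 2 left when an array was left out, 0 of them without replicate 1 of either time point, and none of the 5 in a fit of only these 4 arrays. Cd3d (-0.01), Cd3e (-0.12), Lck (-0.08) and Cd28 (0.50) were not called. Of 21 tested cytokine and chemokine receptor genes 4 rose (19.0%) and Cxcr6 fell (4.76%). Il10ra and Il18r1 passed the filter through arrays of stimulated cells, which favours rises in this share. Cxcr4, which encodes the CXCL12 receptor, went from 7.65 and 7.59 to 8.97 and 9.17 (1.45, SE 0.26). The calls of the other 4, Il10ra, Il18r1, Ifngr2 and Cxcr6, were lost without 1 to 4 of the arrays (adjusted p 0.052 to 0.101), so that 1 gene of the list was called without replicate 2 at 0 h and 3 without any of the other arrays.

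Transcription factors of lineage and differentiation changed in part. Irf4, which acts downstream of the antigen receptor, went from 6.81 and 6.90 to 8.78 and 8.77 (1.92, SE 0.20, adjusted p = 6.32e-05). It was the 1 gene called of 12 in the list of NFAT factors, calcineurin and calcium feedback genes (8.33%, where 10.3% of all genes were called). Nfatc1 of this list was at -0.32 (adjusted p = 0.0795, limma). Of 16 tested lineage factors, Bhlhe40 (1.61, SE 0.24), Irf1 (1.31, SE 0.11), Ets2 (0.47) and Gata3 rose, and Xbp1, a factor of the secretory pathway, fell by 0.71. These were 25.0% and 6.25% of the list, against 4.42% and 5.86% of all genes. Ets2 and Gata3 lost their call without any 1 of the 4 arrays, which left 3. The Myc gene, a growth regulator, fell from 7.62 and 7.31 to 6.58 and 6.27 (-1.04, SE 0.18, adjusted p = 0.00384), a call lost without replicate 1 at 0 h (0.0546). Mnt, a MAX partner and antagonist of Myc, was the other call of 10 tested Myc network genes. It was below background at 2 h and at least 1.14-fold lower than at 0 h, a call lost without either 0 h array or replicate 2 at 2 h (0.068 to 0.212).

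Genes of cell survival changed in both directions. Of 19 tested BCL2 family and apoptosis genes 4 rose (21.1%, against 4.42% of all genes) and 2 fell (10.5%, against 5.86%). Fas passed the filter only through arrays of stimulated cells, which favours rises in this share. Fas, the death receptor, was below background at 0 h (5.27 and 5.24) and at 7.96 and 7.91 at 2 h, at least 4.91-fold higher (adjusted p = 1.64e-07). The antiapoptotic NF-κB target Bcl2a1d went from 5.87 and 5.81 to 7.63 and 7.28 (1.61), and its near copy Bcl2a1c rose by 0.78, but probes of the Bcl2a1 copies may share signal, so that these 2 values are uncertain. Bcl2 fell by 0.91 (SE 0.16) and Casp8 by 0.55, the latter not in a fit of only these 4 arrays (adjusted p = 0.0505). Bcl2l11, the proapoptotic BIM gene and a FOXO target, was below background at 0 h and at least 2.07-fold higher at 2 h. Btg1, an antiproliferative gene of quiescent lymphocytes, rose by 0.88, and the FOXO target Irs2 fell by 1.02 (adjusted p = 0.00303). With Txnip, these were the 4 calls among 19 tested quiescence and FOXO target genes, of which 10.5% rose and 10.5% fell. Bcl2l11 also passed the filter only through arrays of stimulated cells. The change of -1.03 in Txnip lost its call without replicate 1 at 0 h or at 2 h.

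Falls were smaller and spread over many genes. After Egr1 the 2 largest were those of Arid3b, an ARID-domain DNA-binding protein gene, from 8.89 and 8.65 to 7.23 and 6.91 (-1.70, SE 0.18, adjusted p = 7.82e-05), and of the inositol phosphate kinase gene Itpk1, from 8.73 and 8.91 to 7.41 and 7.04 (-1.59, SE 0.15). The predicted gene LOC100047934 (-1.46), the histone gene H2ac21 (-1.43), the pyruvate dehydrogenase phosphatase gene Pdp1 (-1.41), the Notch target Hey1 (-1.35) and Tbl2 (-1.30) followed. Parp16 was not well above background at 2 h and at least 2.06-fold lower than at 0 h. The falls of Etv5 and Kremen (-1.30 and -1.28) were the only ones among the 24 largest rises and falls that lost their call under an alternative. Etv5 did so without replicate 2 at 0 h or at 2 h (adjusted p 0.0838 and 0.0884) and in a fit of only these 4 arrays (0.0528), and Kremen without replicate 2 at 2 h (0.0571).

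Sterol synthesis had the largest share of falls among the 27 lists. Of 22 genes on the arrays, 21 were tested, 11 fell (52.4%, against 5.86% of all genes) and none rose, with a median log2 fold change of -0.44. Sqle, the squalene epoxidase gene, went from 11.30 and 11.36 to 10.49 and 10.39 (-0.89, SE 0.10, adjusted p = 9.21e-05). The sterol transporter gene Stard4 (-0.85), Acat2 (-0.85) and the mevalonate decarboxylase gene Mvd (-0.80) fell by similar amounts. These 4 kept their call when single arrays were left out. The calls of Dhcr7, Scd1, Scd2, Cyp51, Insig1 and Insig2 (-0.94 to -0.42) did not, and the count was 5 without replicate 1 at 0 h, 6 without replicate 2 at 0 h or replicate 1 at 2 h, 7 without replicate 2 at 2 h and 13 under scaling to a common mean.

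Genes of glycolysis and of the cell cycle showed falls of smaller size that rested on single arrays. Of 19 tested glycolysis and glucose uptake genes 6 fell (31.6%), with log2 fold changes between -0.66 and -0.42, among them the glucose transporter genes Slc2a1, at 10.63 and 10.64 and then at 9.98 and 10.00, and Slc2a3, at 11.99 and 11.96 and then at 11.39 and 11.24. None of these was called without replicate 1 at 0 h or without replicate 2 at 2 h, and the list had 3 calls without replicate 2 at 0 h or replicate 1 at 2 h. Of 28 tested G2/M genes 6 fell (21.4%), and 0, 1, 3 and 0 without replicate 1 at 0 h, replicate 2 at 0 h, replicate 1 at 2 h and replicate 2 at 2 h. Of 35 tested G1/S and replication genes 3 rose (8.57%) and 6 fell (17.1%), against 4.42% and 5.86% of all genes. The fall of Ccnd3, a D-type cyclin gene, from 10.37 and 10.47 to 9.77 and 9.72 (-0.67, SE 0.10) and the rise of the cyclin-dependent kinase inhibitor gene Cdkn1a, from 9.60 and 9.61 to 10.48 and 10.47 (0.87), kept their call without any 1 array. The list had 2 calls without replicate 1 at 0 h or replicate 2 at 2 h, 4 without replicate 2 at 0 h and 5 without replicate 1 at 2 h.

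**Figure D3:**
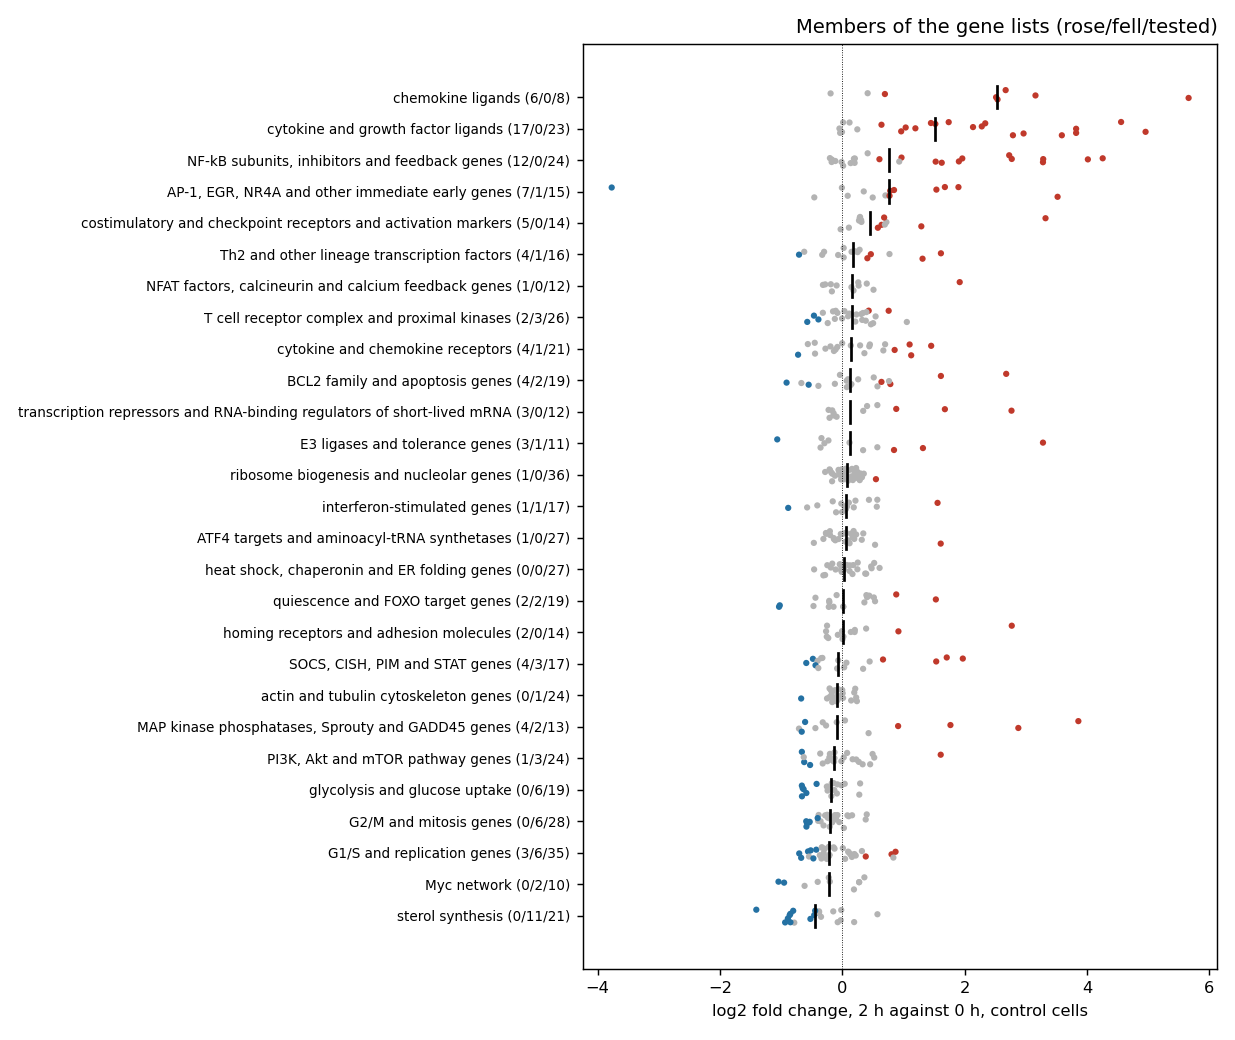
Fitted log2 fold change at 2 h against 0 h (x axis) of the tested members of 27 gene lists (y axis), 1 point per gene. Red points rose, blue points fell, grey points were not called, and black bars mark the list medians. Genes below background in a group are drawn at their fitted value, and the numbers after each list give genes that rose, fell and were tested. Chemokine and cytokine ligands lie highest, with medians of 2.52 and 1.52, and sterol synthesis lowest, with -0.44.

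Other programs of activated T cells had from 0 to 4 calls each, where 10.3% of all genes tested were called. Of 36 tested ribosome biogenesis genes only Pes1 was called (0.55), with a list median of 0.07. Of 27 tested ATF4 targets and aminoacyl-tRNA synthetases only Ddit4, an inhibitor of mTOR signalling, was called (1.61, SE 0.18), and of 27 tested heat shock and folding genes none (limma, median 0.03, with 4 at an unadjusted p under 0.05). Interferon-stimulated genes had 1 rise, that of Gbp3 (below background at 0 h and at least 2.32-fold higher at 2 h), and 1 fall, that of Parp14 (-0.89), of 17 tested. Gbp3 passed the filter only through arrays of stimulated cells. Of 24 tested PI3K, Akt and mTOR pathway genes Ddit4 rose and 3 fell, none of these without replicate 1 at 0 h or replicate 2 at 2 h, of 14 homing and adhesion genes Icam1 and Cd53 rose, and of 24 cytoskeleton genes Tuba4a fell. Of 11 tested E3 ligase and tolerance genes 3 rose (27.3%, against 4.42% of all genes), namely Nfkbid, Egr2 and Gramd1b (1.32). Nedd4l fell by 1.06 (adjusted p = 0.000812, limma). The calls of Pes1, Parp14, Cd53 and Tuba4a were lost without replicate 1 at 0 h, all but that of Pes1 without replicate 2 at 0 h, those of Pes1 and Parp14 without replicate 1 at 2 h, and those of Cd53 and Tuba4a without replicate 2 at 2 h (adjusted p 0.0503 to 0.255).

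Canonical histone genes, a list examined after their values were seen, are given by histone type. Of 12 tested H2A genes 9 fell (75.0%, against 5.86% of all genes) and 2 rose (16.7%, against 4.42%), with a median log2 fold change of -0.98. Of 11 tested H2B genes 2 rose (18.2%), of which H2bc8 passed the filter through arrays of stimulated cells. None of 7 H3 and 10 H4 genes was called by limma (1 and 2 of them at an unadjusted p under 0.05). As 10.3% of all genes were called, an absence of calls in lists this small says little. The medians of H2B, H3 and H4 were 0.38, 0.23 and 0.23. H2ac7 was at 14.22 on both arrays at 0 h and at 13.10 and 13.08 at 2 h (-1.13, SE 0.13, adjusted p = 0.000166). H2ac15 (-1.16), H2ac12 (-1.15) and H2ac10 (-1.12) fell by nearly the same amount. The 9 falls remained called without any 1 of the arrays and with all 3 scalings. H2ac8, at 6.95 and 7.49 and then at 8.28 and 8.16, and Hist2h2aa1 (0.97) rose, the former not without replicate 1 at 0 h or at 2 h (adjusted p 0.0587 to 0.11), and both calls among the H2B genes were lost without 3 or 4 of the arrays (0.0696 to 0.227). H2A copies are nearly identical in sequence and their probes may share signal, so that the 9 falls cannot be counted as separate measurements.

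**Figure D4:**
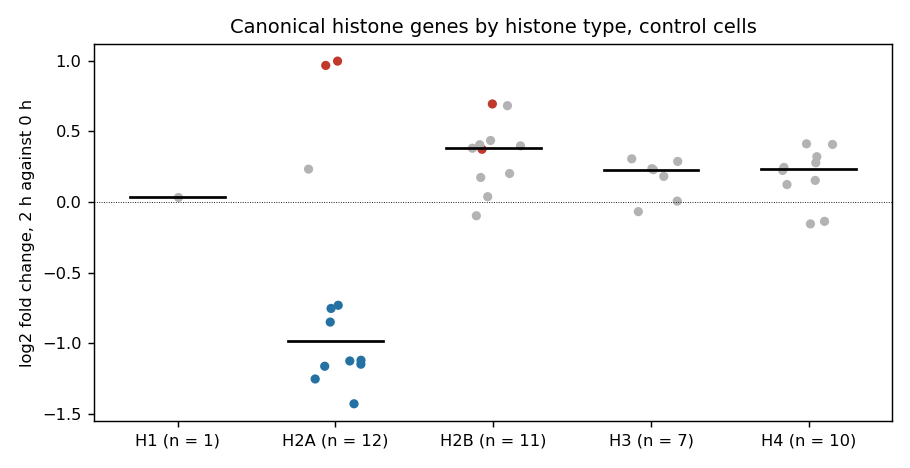
Fitted log2 fold change at 2 h against 0 h (y axis) of tested canonical histone genes by histone type (x axis, with the number tested), 1 point per gene. Red points rose, blue points fell, grey points were not called, and black bars mark the medians. The H2A genes form a low cluster with a median of -0.98, while the medians of H2B, H3 and H4 lie between 0.23 and 0.38.

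The 2 h level was then compared with 6 h in control cells, which asks which early changes were still building up. Both comparisons share the 2 h arrays. By limma 1078 of 7395 genes differed between 2 and 6 h (14.6%), 547 higher (7.4%) and 531 lower (7.18%) at 6 h. Without single arrays of these groups the count was 449 to 747, lowest without replicate 2 at 2 h (449) and replicate 2 at 6 h (453), 660 without replicate 1 at 6 h, and a fit of these groups alone gave 502. Several regulators were lower again at 6 h. Dusp1 had a log2 difference of -1.34 (adjusted p = 0.000441), Nfkbiz of -1.11 (0.00462), Cxcr4 of -1.02 (0.0201), Cd69 of -0.86 (0.00555), Cxcl10 of -0.85 (0.0118) and Tnfaip3 of -0.80 (0.0243). Bcl2l11 was below background at 6 h and at least 2.00-fold lower than at 2 h (3.69e-05). Egr1 was lower still, with a difference of -0.95 (0.0436), while Myc was higher by 1.33 (0.000597), at a mean of 7.76 against 7.47 at 0 h.

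Several cytokine genes were higher still at 6 h. Il3 (2.64), Il5 (2.64), Il10 (2.09) and Ccl1 (0.90) were higher at 6 h than at 2 h, while Csf2 (0.19), Tnf (-0.46), Il4 (0.13) and the inhibitor gene Nfkbia (0.11) were not called. Of the 23 tested cytokine genes 10 were higher and 1 was lower at 6 h. Of the 24 NF-κB genes 10 were higher and 2, Nfkbiz and Tnfaip3, were lower. Of 36 ribosome biogenesis genes 18 were higher and none lower, and Batf (2.08), Jak2 (1.72) and Socs3 (2.42) were higher. The change from 0 to 2 h in cells given Akti1/2 differed from that in control cells in 8.41% of genes (4.25% with a higher and 4.16% with a lower change), by the interaction in the same fit, and 46 of the 159 genes reported here under the naming rule were among them.

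**Figure D5:**
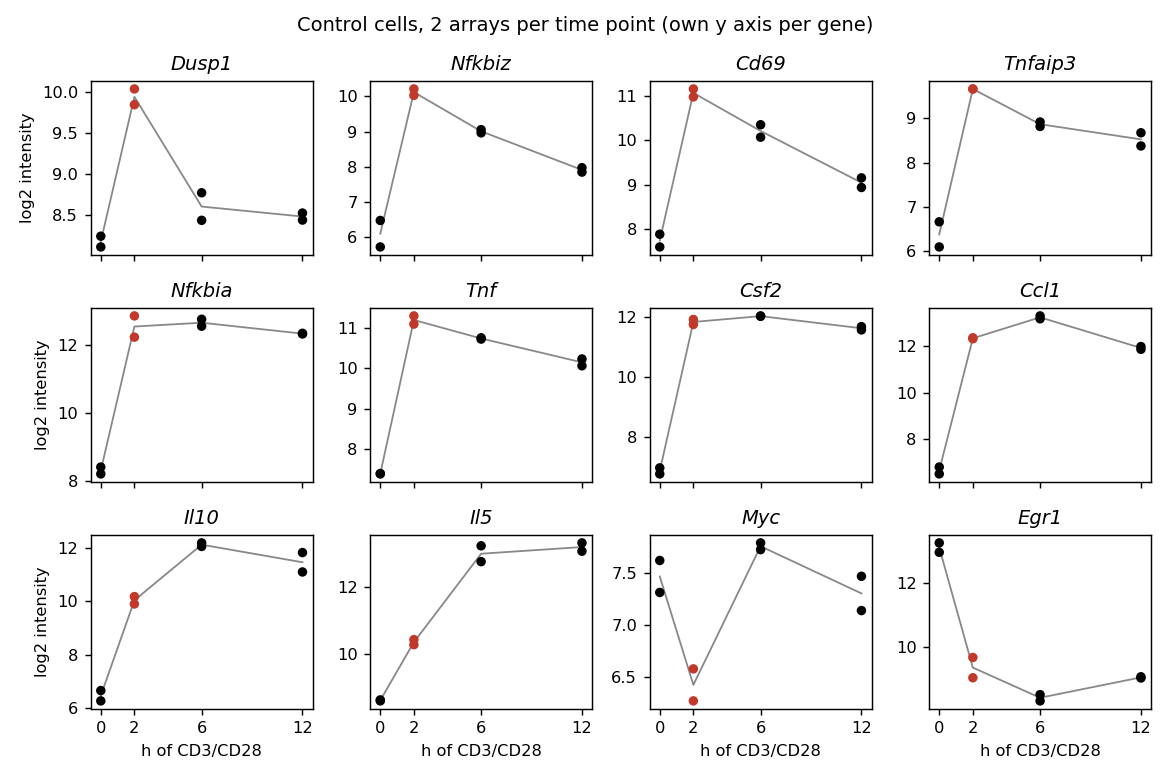
Log2 intensity (y axis, scaled for each gene) of 12 genes in control cells at 0, 2, 6 and 12 h (x axis), 1 point per array and a line through the means, with the 2 h arrays in red. Dusp1, Nfkbiz, Cd69 and Tnfaip3 are highest at 2 h, Il5 and Il10 are higher at 6 h than at 2 h, Myc is lowest at 2 h, and Egr1 drops from 13.26 and 12.96 at 0 h.

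The span of a gene in the genome was set beside its change. The span, from the first to the last base of the RefSeq gene in GRCm38.p6, had a median of 9.47 kb for genes that rose by a log2 of 1 or more, 15.6 kb for all that rose, 26.8 kb for those that fell and 19.9 kb for all genes tested (quartiles 8.52 and 42.6 kb). A span was known for 91.3% of the tested genes. This is a description without a test.

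The study ranked genes by the J5 score, in which the difference between 2 group means of untransformed intensity is set against the average size of that difference on the array, with no error term. Beyond a score of 20 lay 122 of 18138 genes (0.673%), 95 above and 27 below, and limma called 47 of these. The median size of the log2 fold change was 1.13 in the 47 and 0.18 in the rest. Of 145 genes called by limma with a log2 of 1 or more in size, 119 had a score within 20. The score was 319.5 for Ier3, 93.2 for Ccl1 and 64.0 for Csf2. All 122 genes beyond 20 were among the genes tested. With the average taken over only the genes above background, which makes it larger, 30 genes lay beyond 20.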

How the data were processed

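Per the labels, total RNA of D10 cells was hybridized to Illumina MouseRefSeq8 arrays, 16 on 2 chips. The authors deposited the bead intensity of each array, summarized as 1 value per gene on a linear scale, without normalization or background subtraction per the file headers, for 18138 genes and 798 negative controls. A detection p was computed as the share of negative controls that were as bright as the gene or brighter, and genes under 0.01 on at least 2 arrays were tested. Intensities were processed with neqc (offset 16) in limma 3.58.1 under R 4.3.3, and a single linear model took in the arrays of all 8 groups (lmFit, contrasts.fit and eBayes, with 8 residual and 4.26 prior degrees of freedom) with Benjamini-Hochberg adjustment over 7395 genes and a threshold of 0.05. The spread is estimated from 2 arrays per group, whose number limits the precision. A gene below background on both arrays of a group is given as a bound where its change is described, while list medians, plots and interactions use fitted values unless stated. Its level there was replaced on each array by the lowest signal of any detected gene, or kept where it was higher, before group means were compared.

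Members, lists and comparisons were chosen with earlier results of these data known, and the lists of p53 targets and histones after the values were seen. Genes named are the 12 largest rises and falls called and moving the same way on both chips, the called members of the lists, and Fos, Il4, Gata3, Myc, Klf2 and Klf6 wherever they lay. Some genes of the rule are not reported here. Klf2 was not above background. For J5, arrays were first set to equal 95th percentiles. Alternatives were other normalizations and filters, blocking on replicate number or chip, fitting the compared groups alone and leaving out each array. The control profile deposited apart was not needed, as the main table carries these entries for all 16 arrays. The steps were tested on simulated arrays. Promoters and gene spans are from RefSeq (GRCm38.p6). Tables and figures were made with Python 3.11.15, pandas 2.3.3, numpy 2.4.6 and matplotlib 3.10.9.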

Additional observations from a re-analysis of the deposited data

Results flagged for a closer look

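The change from 0 to 2 h was also measured in cells pre-incubated with 10 µM Akti1/2. The interaction, which is the log2 change with Akti1/2 minus that without, was tested with limma and passed an adjusted p of 0.05 in 622 of 7395 genes (8.41%), 314 higher and 308 lower. Of the 159 genes reported here under the naming rule, 46 passed it, 24 lower and 22 higher with Akti1/2. The 0 and 2 h control arrays enter both the changes described above and this difference, so that the signs are not independent of them. Without replicate 1 or 2 of the control cells the count of 622 was 193 and 304 at 0 h and 348 and 316 at 2 h. Without replicate 1 or 2 of the cells given Akti1/2 it was 259 and 278 at 0 h and 628 and 279 at 2 h. Scaling to a common mean moved the share of higher values from 50.5% to 64.7%.

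Of 23 tested cytokine genes 10 had a lower change with Akti1/2, and of 8 tested chemokine genes 2. These were Csf2 (-2.29), Il3 (-1.72), Il5 (-2.80), Il13 (-2.16), Tnf (-2.56), Lta (-1.86), Ltb (-1.27), Tnfsf9 (-2.47), Tnfsf11 (-1.27), Tnfsf14 (-2.21), Ccl1 (-0.97) and Cxcl10 (-1.82). Of 24 tested NF-κB genes 2 had a lower change. Genes of NF-κB and of signal feedback with a lower change were Icam1 (-1.12), Nfkbid (-1.36), Gadd45b (-1.09), Ier3 (-1.56), Rgs16 (-1.31), Socs3 (-2.09), Cish (-0.92) and Pim3 (-0.74). Of 21 tested sterol genes 9 had a higher change, among them Dhcr7 (2.17), Mvd (1.01), Stard4 (0.95), Cyp51 (0.79), Sqle (0.71) and Insig1 (0.64). Of 12 tested H2A histone genes 9 had a higher change, namely H2ac21 (1.28), H2ac7 (1.00), H2ac10 (1.22), H2ac11 (1.33), H2ac12 (1.03), H2ac15 (1.26), H2ac20 (0.68), H2ac22 (0.72) and H2ac24 (0.64), whose copies may share probe signal. Other named genes with a higher change were Klf6 (1.02), Stat4 (0.60), Cxcr4 (1.82), Cxcr6 (1.35), Ets2 (0.58), Xbp1 (1.16) and Chaf1a (1.01), and with a lower change Rrm2 (-0.73), Plk1 (-1.04), Slc2a3 (-0.92) and H2bc12 (-0.56). Fitted values of genes below background in a group are not measured sizes. Of the genes above, Il3, Gadd45b, Lta, Tnfsf9 and Cxcl10 were below background in control cells at 0 h, Cxcr6 in control cells at 2 h, Il3, Socs3, Lta, Tnfsf9 and Cxcr6 in cells given Akti1/2 at 0 h, and Socs3 and Lta in those at 2 h.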

How the results depend on the processing

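Of the 161 named genes that were called, 93 kept their call under every alternative that tested them. Nearly all the others lost it when an array was left out. Not every alternative tested every gene, since the filter to genes detected on all 16 arrays held 125 of the 163 named genes. For the change from 0 to 2 h (760 calls) the count was 433 in a fit of only the groups compared, 265 to 439 with an array left out, 719 with a replicate block and 729 with a chip block, and between 565 and 902 under the other alternatives. The replicate numbers mark the chips here but no stated pairing (deviations of same-numbered arrays at 0 and 2 h correlated at 0.181), and the block ended the calls of Vav1, Nab2, Ccl5, Pfkl and Tnfrsf10b. For 6 h against 2 h (1078) the counts were 502 and 449 to 747. For the interaction with Akti1/2 (622) they were 193 to 628 with an array left out. The J5 count (122) was 30 with the average difference taken over only genes above background and 98 to 110 with an array left out. The sign of the change in Fos, 0.09, turned to -0.04 under scaling to a common mean, to -0.07 without replicate 1 at 0 h and to -0.18 without replicate 2 at 2 h, and was 0.36 without replicate 1 at 2 h. The cause of these differences was not tested. Leaving out an array leaves its partner alone in the group, with the spread taken from the others. Median intensities per array, 136.5 to 148.6 on the 4 arrays, lay close to the mean negative controls (127.3 to 138.6), so that changes of genes near that level were not detectable.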

Other observations

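A list of p53 target genes, drawn up after rises of several of them had been seen, held 23 tested genes of 30 in the table, of which 9 rose (39.1%, against 4.42% of all genes) and Xpc fell (-0.75). Zmat3, which encodes an RNA-binding protein induced by p53, was at 8.26 on both arrays at 0 h and at 10.27 and 10.60 at 2 h (log2 fold change 2.18, SE 0.20, adjusted p = 1.87e-05, limma). The translesion polymerase gene Polk went from 6.82 and 6.68 to 8.55 and 9.03 (2.04, SE 0.22), Trp53inp1 from 8.40 and 8.33 to 9.93 and 10.04 (1.62, SE 0.18) and the cyclin G1 gene Ccng1 from 9.92 and 9.74 to 10.94 and 11.02 (1.15, SE 0.12). Ei24 rose by 1.12. Fas and Cdkn1a, described above, also belong to the list, and Fas passed the filter only through arrays of stimulated cells. Bax (0.51, adjusted p = 0.067) and Trp53 (0.15) were not called. The calls of Gtse1 (0.72), Tnfrsf10b (0.64) and Xpc were lost without 1 or more of the arrays (adjusted p 0.0611 to 0.214). The count of 10 lay between 7 and 13 under all alternatives run. Several of these genes were lower again at 6 h. The log2 difference between 6 and 2 h was -1.75 in Trp53inp1 (adjusted p = 7.99e-05), -1.62 in Polk (0.000442), -1.39 in Cdkn1a (0.000192) and -1.10 in Gtse1 (0.000361), and 10 of the 23 genes were lower and 1 was higher at 6 h. Because the list was chosen on these values, its count is a description.

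Slco2b1, an organic anion transporter gene and the only gene with a fitted log2 of 3 or more that belongs to no list above, was below background on both arrays at 0 h and detected on both at 2 h, at least 5.85-fold higher (adjusted p = 1.6e-08), and was chosen after its values were seen.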
